A study of Mus musculus with 3 samples.

Results

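The genes described are 43 mouse genes of mitosis and DNA replication, listed by name with earlier results of these data known. Of them 31 act in mitosis, 10 act in DNA replication and 2 encode transcription factors of proliferating cells. A gene was read from the probe set with its single symbol and the highest mean signal, and was kept if that signal reached 100 on 1 or more arrays, the limit that the methods name. Of the 43, 42 had such a probe set and 39 reached 100, among 18194 genes with a probe set, of which 6896 (37.9%) reached 100. The samples were iBATs, an immortalized brown adipocyte line, on day 8 of differentiation, which were either untreated (0 h) or treated with isoproterenol (ISO), a β-adrenergic receptor agonist, for 1 h or 2 h (1 μM in the study's text). There was 1 array per time point, so the values carry no replicate error and no p-value. No untreated array was at hand for 1 or 2 h, so ISO, elapsed time, culture and array cannot be told apart. The threshold of the study, a 2^0.8-fold change, is used as a size and not as a test. The line was made from cells of the stromal vascular fraction of brown fat of newborn C57BL/6 mice by retroviral expression of SV40 large T antigen, and all 3 samples carry it. Before ISO the cells had been induced to differentiate with insulin and indomethacin.

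Cells copy their DNA in S phase and divide it in mitosis, and each phase has its own wave of transcription. E2F factors drive replication genes, and the RB family holds E2F factors inactive in cells that have left the cycle. Mitotic genes peak later, through factors that act on the cell cycle genes homology region (CHR) and on CCAAT boxes, among them B-MYB, FOXM1 and NF-Y, and the DREAM complex silences them in quiescence. Adipocytes usually leave the cycle as they differentiate. SV40 large T antigen binds the RB family and p53, which are the brakes on cycling.

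The mitotic members and the replication members differed in promoter sequence, which is shown first because the array values are described along the same division. RefSeq promoters (GRCm38.p6, from 250 bases before to 50 bases after the start) were at hand for 37 of the 43. Printed are those of the 3 genes that fell at 2 h (Bub1b, Espl1 and Kifc1), of Ccnb2 and Cdk1 as a mitotic cyclin and its kinase, and of the replication gene Mcm6 for contrast, each from 120 bases before the start to 30 bases into the transcript. For Bub1b the stretch ends at the start, and a separate run of 30 bases holds its CHR. Capitals mark a CHR, a CCAAT box or an E2F motif, each searched on both strands. The CHR was spelled TTTGAA in its first form and TTTAAA in its second. The CCAAT box reads ATTGG on the opposite strand. The E2F motif was spelled TTCCCGC in its first form, with TTCGCGC as the next, then TTGCCGC as another and TTGGCGC as the last.
Bub1b, chr2:118598091-118598210, plus strand: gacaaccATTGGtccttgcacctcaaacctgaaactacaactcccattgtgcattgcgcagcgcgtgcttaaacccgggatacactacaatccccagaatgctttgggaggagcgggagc
Bub1b, chr2:118598231-118598260, plus strand: ctgcgtcaagagacgttaaaTTTGAAactt
Espl1, chr15:102296173-102296322, plus strand: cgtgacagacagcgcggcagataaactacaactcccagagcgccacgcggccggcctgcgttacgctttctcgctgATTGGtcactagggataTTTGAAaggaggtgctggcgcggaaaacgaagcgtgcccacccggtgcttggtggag
Kifc1, chr17:33890604-33890753, minus strand: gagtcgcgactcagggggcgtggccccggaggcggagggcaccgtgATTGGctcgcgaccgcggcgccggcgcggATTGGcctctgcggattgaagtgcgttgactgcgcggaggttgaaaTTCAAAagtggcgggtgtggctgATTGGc
Ccnb2, chr9:70421525-70421674, minus strand: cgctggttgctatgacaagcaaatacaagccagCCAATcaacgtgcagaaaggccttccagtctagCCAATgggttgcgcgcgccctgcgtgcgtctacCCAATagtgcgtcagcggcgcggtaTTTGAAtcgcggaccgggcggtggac
Cdk1, chr10:69352883-69353032, minus strand: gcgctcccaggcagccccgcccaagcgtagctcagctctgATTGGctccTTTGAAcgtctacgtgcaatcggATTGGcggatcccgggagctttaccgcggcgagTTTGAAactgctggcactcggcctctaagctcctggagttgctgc
Mcm6, chr1:128359676-128359825, minus strand: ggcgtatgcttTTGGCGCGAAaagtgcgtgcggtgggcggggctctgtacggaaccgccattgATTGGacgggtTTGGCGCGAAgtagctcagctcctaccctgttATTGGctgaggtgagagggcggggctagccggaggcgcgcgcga
The 5 mitotic genes printed each hold a CHR and 1 or more CCAAT boxes in these stretches, and Mcm6 holds E2F motifs and CCAAT boxes without a CHR. Cdk1 also holds E2F motifs ahead of its printed stretch, with first bases at -178 and -130 from the start. On Kifc1 the CHR reads on the other strand, and on Mcm6 the E2F motifs come in overlapping pairs, one on each strand.

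Over all promoters of the members, a CHR was found in 24 of 27 mitosis genes (88.9%) and in 3 of 9 replication genes (33.3%), against 30.6% of the 27025 genes with a promoter in the table and 21.9% of the 5694 such genes that were read on these arrays. A CHR and a CCAAT box together were found in 22 of the 27 mitosis genes (81.5%) and in 12.2% of all genes. An E2F motif was found in 3 of 27 mitosis genes (11.1%) and in 6 of 9 replication genes (66.7%). It was found in 10.9% of all genes and in 21.4% of those read on these arrays. CCAAT boxes did not divide the members: 23 of 27 mitosis genes and 8 of 9 replication genes held one, against 41.1% of all genes. In 21 of the mitosis genes a CHR began within 50 bases of the start. TTTAAA is its own reverse complement, the reverse of CCAAT shares bases with TTGGCGC, and overlapping matches were each counted. A match is a run of letters and does not show that a factor binds there.

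**Figure D1:**
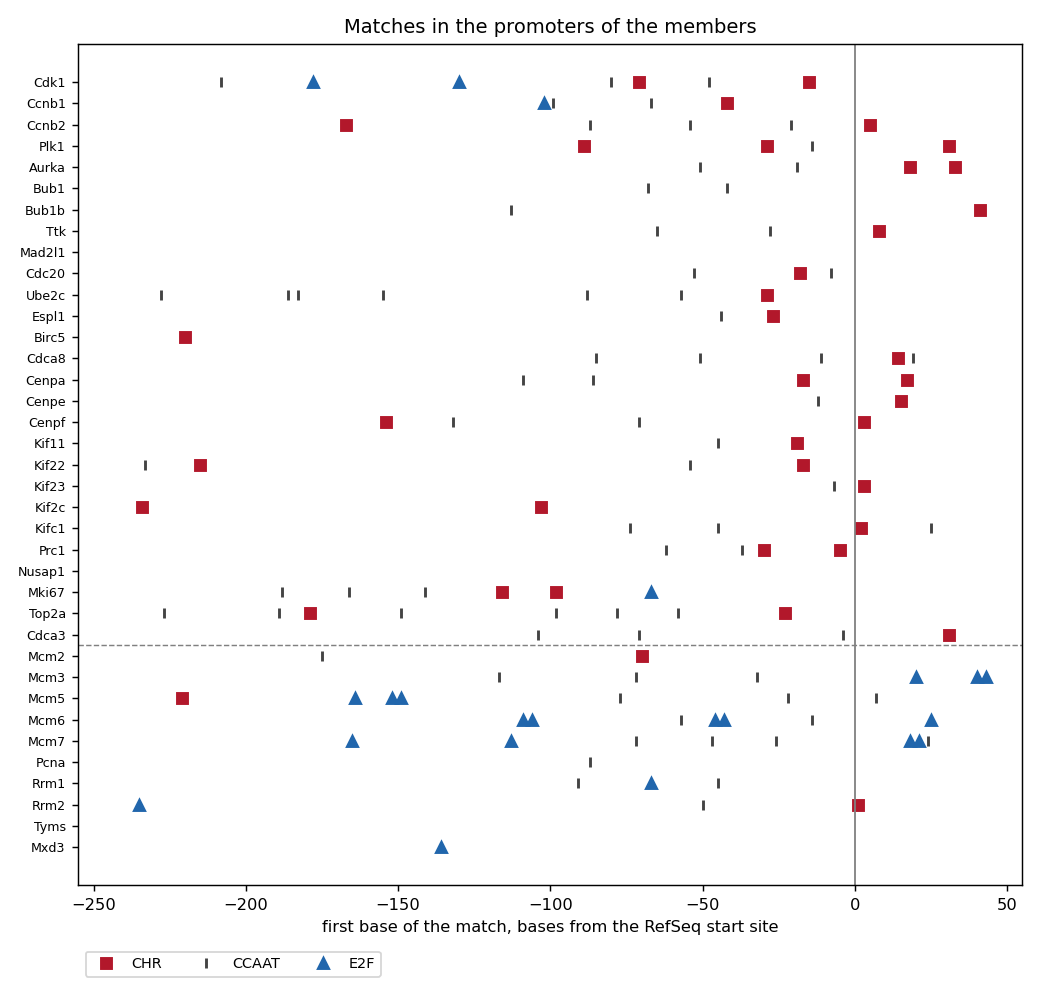
Position of each match (horizontal axis, bases from the RefSeq start site) in the promoters of the 37 members with a promoter (1 row each), with CHR as red squares, CCAAT boxes as dark bars and E2F motifs as blue triangles. The dashed line parts mitosis genes from the others; the red squares lie mostly above it, in 24 of 27 rows, and the blue triangles mostly below it. Rows without a symbol have no match.

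The signals are linear MAS5 intensities, scaled to a trimmed mean of 100 on each array, and Actb gave a 3′ to 5′ ratio of 1.6 on every array. Of 8 adipocyte markers 7 were read, with a median of -0.04 on the log2 scale at 2 h and summed signals of 21933.2, 25871.1 and 24222.1 at 0, 1 and 2 h. Ucp1, the uncoupling protein of brown fat, rose from 1485.7 to 4166.1 at 2 h, and the other 6 did not pass, from -0.18 for Adipoq to 0.66 for Pparg. Of 10 preadipocyte and fibroblast markers 7 were read. The 9 of them with a probe set summed to between 12471.4 and 13661.0 on the 3 arrays, with Thy1 and Cd34 below 20 throughout. None of 6 endothelial, 7 macrophage and leukocyte and 6 muscle markers reached 100. The 12 housekeeping genes read had a median of -0.02 at 2 h on the log2 scale, and none passed 2^0.8-fold. Arrays of whole cultures cannot tell fewer cells of a type from less RNA per cell.

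Transcripts of the division machinery were read in the untreated cultures on day 8, and which cells of the cultures held them was not tested. Mki67, the proliferation marker, had a signal of 801.7 at 0 h. Top2a, the topoisomerase that untangles replicated chromosomes, had 1009.1, and Cdk1, the kinase that drives entry into mitosis, had 1224.9. In all, 29 of the 30 mitosis genes with a probe set and 9 of 10 replication genes reached 100 on 1 or more arrays. Over all genes with a probe set 37.9% did. On all 3 arrays 24 and 9 did, as did 6166 of all 18194 genes. Just above the limit were Mxd3 with a highest signal of 102.0 and Kif23 with 105.0, and just below it was Ttk with 70.4. The 3 genes that were not read were Ttk, a checkpoint kinase, with 68.6, 69.1 and 70.4 at 0, 1 and 2 h, Foxm1, a transcription factor of mitotic genes, with 46.0, 26.1 and 20.8, and Tyms, thymidylate synthase, with 26.1, 38.3 and 31.3. Signals of Ccnb1, a B-type cyclin, were not analysed here, because no probe set had its symbol alone, and it is counted among the promoters only.

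After 2 h of ISO the mitosis genes lay below 0 h, and most of them by little. All 29 that were read had a lower signal at 2 h than at 0 h. Their median log2 ratio was -0.37, from -1.16 for Kifc1 to -0.12 for Cenpe. Bub1b, Espl1 and Kifc1 fell by at least 2^0.8-fold, and no member rose. Over all 6896 genes, 0.812% were lower by 2^0.8-fold, 2.73% were higher by as much, 61.4% were below 0 h by any amount, and the median was -0.07. Because the members were chosen with earlier results of these data known, their counts beside those of all genes are a description and not a test. The 9 replication genes had a median of -0.10, with 7 below and 2 above 0 h and a range from -0.19 to 0.16. The ranges of the 2 groups overlap between -0.19 and -0.12. At 1 h the mitosis genes had a median of -0.18, with 25 of 29 below 0 h, and the replication genes had 0.03, with 4 of 9 below, while 55.6% of all genes were below 0 h and their median was -0.02. Mxd3 was the 1 member past the threshold at 1 h, where 0.218% of all genes were lower and 1.58% higher by as much. From 1 h to 2 h no member passed, where 0.319% of all genes were lower and 0.667% higher by as much, and 34 of the 39 members were below their 1 h signal, against 59.3% of all genes. The medians from 1 h to 2 h were -0.21 for mitosis genes, -0.06 for replication genes and -0.04 for all genes. A signal that was lower at 1 h than at 0 h and lower again at 2 h was seen in 23 of the 29 mitosis genes, 3 of the 9 replication genes and 33.0% of all genes. These comparisons share arrays and are not independent of each other, and genes read on the same arrays are not replicates of a time point.

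**Figure D2:**
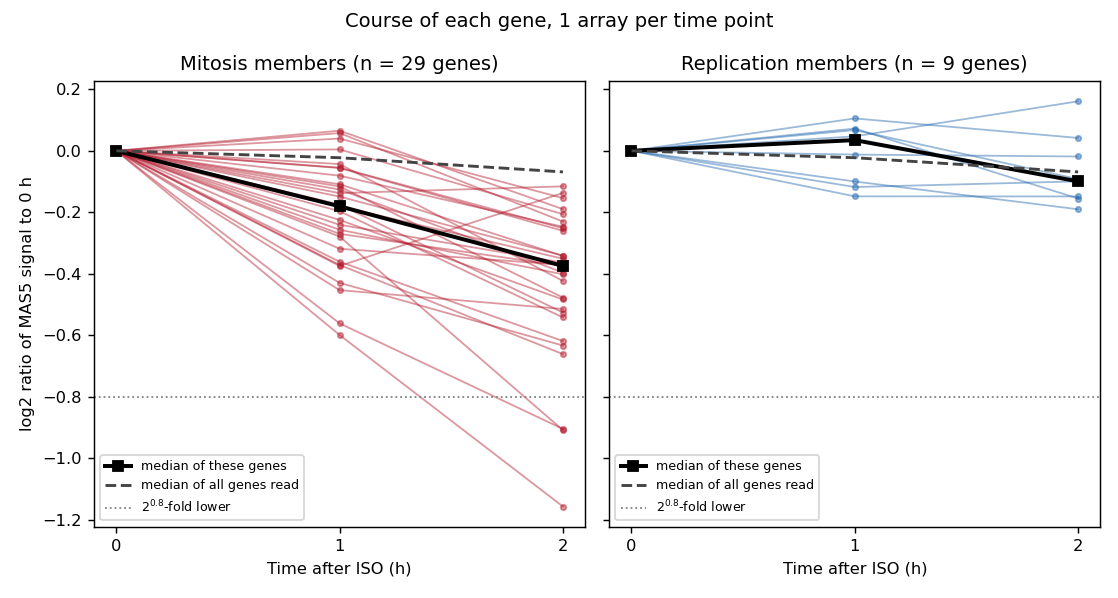
Time course of each gene read, as the log2 ratio of its MAS5 signal to that at 0 h (vertical axis) by hours of ISO (horizontal axis); single arrays give no error bars. Black lines are medians of the genes drawn, which reach -0.37 at 2 h for the 29 mitosis genes and -0.10 for the 9 replication genes, and the dashed line is the median of all genes read, at -0.07.

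The 3 genes that fell at 2 h were dim, and all of them were below 100 at 2 h. Kifc1, a minus-end-directed spindle motor of the kinesin-14 family, had signals of 180.9, 119.4 and 81.1, which is -1.16 on the log2 scale at 2 h. Bub1b, which encodes the checkpoint kinase BubR1, had 138.2, 113.9 and 73.6, and Espl1, the separase that cuts cohesin at anaphase, had 119.1, 80.7 and 63.6, both with a log2 ratio of -0.91. Each was highest at 0 h and lowest at 2 h. With signals below 100 set to 100, Kifc1 stayed past the threshold at -0.86, whereas Bub1b was at -0.47 and Espl1 at -0.25. Espl1 and Mxd3 reached 100 on the 0 h array alone, so they could be read only because they were high there, and 4 more members were below 100 on some array. Without these 6, the 24 mitosis genes with at least 100 on all arrays had a median of -0.36 at 2 h, all 24 below 0 h and none past the threshold. Over all 6166 genes with such signals the median was -0.06, 61.0% were below 0 h and 0.195% were lower by 2^0.8-fold. With all genes read put in 10 classes of mean signal, the spread of log2 ratios within a class (the scaled median absolute deviation) was 0.29 for Kifc1 and 0.36 for Bub1b and Espl1 at 2 h, and it holds real change as well as noise.

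A smaller size, a signal at or under 80% of that at 0 h, was looked at after the values had been seen. At 2 h 20 of the 29 mitosis genes and none of the 9 replication genes were that low, against 14.6% of all genes. At 1 h 8 of the 39 members were that low, against 6.16% of all genes, and from 1 h to 2 h 7 were, against 6.96%. No member was higher by the same fold in any of the 3 comparisons, where 5.42% of all genes were at 1 h, 9.38% at 2 h and 5.95% from 1 h to 2 h. Set against the spread of their own class, 20 of the 29 mitosis genes and 1 of the 9 replication genes lay more than 1 spread below the median of that class, and 14.1% of all genes did. The markers of preadipocytes and fibroblasts lay between -0.45 for Pdgfrb and 0.18 on the log2 scale at 2 h, with a median of -0.07, and their part in the lower mitosis signals was not tested.

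**Figure D3:**
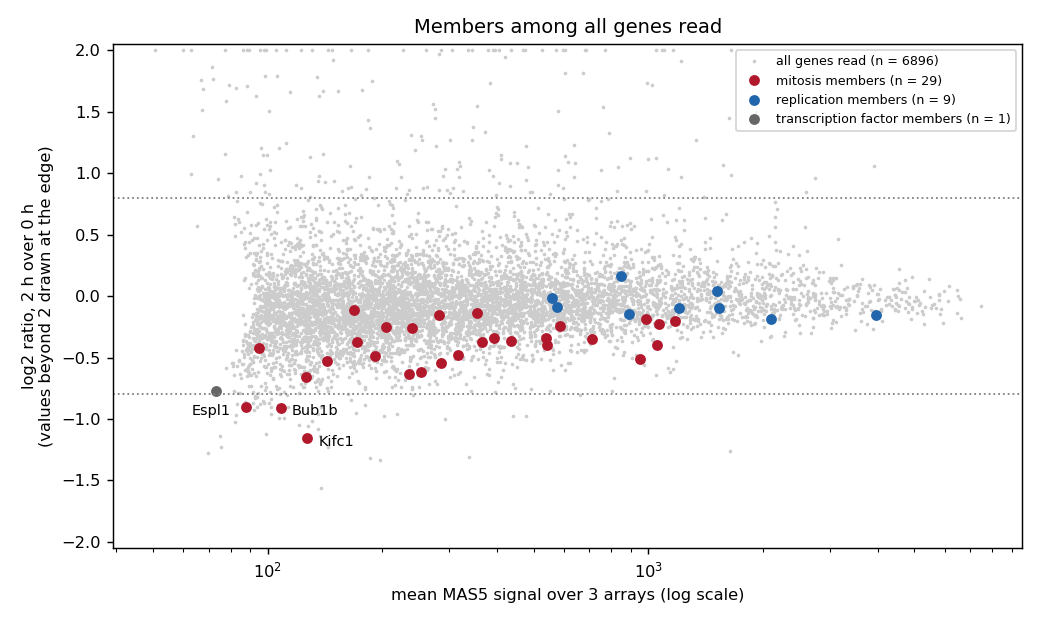
Log2 ratio at 2 h over 0 h (vertical axis, values beyond 2 drawn at the edge) against the mean MAS5 signal over the 3 arrays (horizontal axis, log scale), 1 point per gene. Grey points are all 6896 genes read, red the 29 mitosis genes, blue the 9 replication genes and dark grey Mxd3; dotted lines mark 2^0.8-fold. The 3 genes that fell, which are named, lie among the dim genes.

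Among the cyclins and mitotic kinases, 6 of 7 were read, none passed at 1 or 2 h, and the median at 2 h was -0.43. Plk1, the polo-like kinase of centrosomes and kinetochores, had the lowest ratio of these, with signals of 157.7, 121.9 and 99.7. Aurka, which matures the spindle poles, had 223.6, 191.3 and 159.9, and Aurkb, the kinase of the chromosomal passenger complex, had 166.2, 147.2 and 115.4. Ccna2, cyclin A2 of S phase and early mitosis, had 421.6, 349.6 and 325.2. By these probe sets, the 4 genes and Ccnb2, a B-type cyclin with 595.7, 552.4 and 470.0, were each lower on every later array. Cdk1, the catalytic partner of both cyclins, had 1224.9 and 1228.7 at 0 and 1 h and 1061.8 at 2 h, so its lower signal was seen only on the 2 h array. The second probe set of Ccna2, with 315.1, 316.5 and 274.9, was also below 0 h at 2 h only, at -0.20 on the log2 scale. That of Aurkb, with 120.4, 100.1 and 93.2, was lower on each later array.

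Among the spindle checkpoint genes, the anaphase-promoting complex (APC/C) genes and separase, 6 of 7 were read, with a median of -0.46 at 2 h. Beside Bub1b and Espl1, Cdc20, the activator of APC/C, had signals of 1175.1, 858.2 and 822.5, which is -0.51 on the log2 scale at 2 h and -0.45 at 1 h. Its second probe set had 402.3, 350.8 and 263.8, which is -0.61 at 2 h and -0.20 at 1 h, so the timing of the lower signal differed between them. Ube2c, the ubiquitin-conjugating enzyme of APC/C, had 1178.5, 1080.0 and 895.6. Cdc20 and Ube2c were bright on all arrays, and were at 70.0% and 76.0% of 0 h at 2 h. Bub1, a kinetochore kinase, had 257.3, 247.5 and 214.8. Mad2l1, which encodes the checkpoint protein Mad2, had 1107.6, 1152.8 and 944.2 and, like Cdk1, was below 0 h at 2 h only.

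All 5 centromere and chromosomal passenger genes were read, none passed, and the median at 2 h was -0.34. Cenpf, a large kinetochore protein, had the lowest ratio, with signals of 312.7, 243.5 and 203.6. Birc5, which encodes survivin, had 626.6, 524.4 and 474.3. Cdca8, which encodes borealin, had 439.1, 396.0 and 346.6. Survivin and borealin belong to the same complex as Aurora B, and the 3 genes were at 75.7%, 78.9% and 69.4% of 0 h at 2 h. Cenpa, the histone H3 variant of centromeres, had 630.5, 596.1 and 531.2. Cenpe, a kinetochore motor, had 179.0, 162.7 and 165.2, the smallest difference at 2 h among the brightest probe sets of the mitosis genes. Its second probe set had 142.5, 129.5 and 109.8, which is -0.38 on the log2 scale at 2 h.

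All 9 genes of spindle motors and microtubule proteins were read, with a median of -0.42 at 2 h. After Kifc1, the lowest were Kif2c, a microtubule depolymerase, with signals of 295.1, 219.1 and 190.2, Kif20a, a motor of cytokinesis, with 334.5, 291.9 and 229.7, and Nusap1, a microtubule bundler, with 359.1, 331.4 and 257.9. Kif23, a motor of the central spindle, had 105.0, 101.9 and 78.3. Kif11, which pushes spindle poles apart, had 200.3, 160.6 and 154.9. These 5 lay between 64.5% and 77.3% of 0 h at 2 h. Tpx2, an activator of Aurora A, had 219.6, 211.4 and 184.4. Prc1, which cross-links microtubules of the central spindle, had 289.6, 297.7 and 260.3. Kif22, a chromosome arm motor, had 398.0, 307.0 and 361.9 and was lowest at 1 h, and its second probe set had 112.3, 112.2 and 104.7. By the brightest probe sets, 7 of the 9 genes were lower on each later array, and Kif22 and Prc1 were not. The second probe set of Prc1 was, with 219.2, 209.9 and 158.1. Another probe set of Kif11 had 103.1, 101.6 and 94.8, a log2 ratio of -0.12 at 2 h.

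The remaining mitosis genes were Mki67, Top2a and Cdca3. Mki67 had signals of 801.7, 707.4 and 628.5, and Cdca3, which triggers the destruction of mitotic inhibitors, had 497.3, 420.9 and 386.5. They were at 78.4% and 77.7% of 0 h at 2 h, lower on each later array. Top2a had 1009.1, 1055.9 and 884.7 and was above 0 h at 1 h.

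The 6 MCM genes, which encode the ring of the replicative helicase, had medians of 0.04 at 1 h and -0.10 at 2 h on the log2 scale. Mcm7 was the lowest at 2 h, with signals of 2244.7, 2094.6 and 1967.3. Mcm5 had 1266.8, 1167.4 and 1182.4, and Mcm2 had 578.9, 606.6 and 543.1. Mcm6 had 1557.9, 1595.9 and 1452.8. These 4 were at 87.6% to 93.8% of 0 h at 2 h. Mcm3, with 805.2, 831.9 and 900.3, and Mcm4, with 1465.8, 1576.8 and 1508.9, were above 0 h at both times. The 3 other probe sets of Mcm3 that reached 100 were below 0 h at 2 h, from -0.20 to -0.07, so the direction of Mcm3 depends on the probe set. So do those of Mcm2 and Mcm6, where another probe set was above 0 h at 2 h. It had 444.6, 508.3 and 469.2 for Mcm2 (a log2 ratio of 0.08) and 1006.1, 946.1 and 1098.6 for Mcm6 (0.13). The other probe sets of Mcm5 and Mcm7 that reached 100 were below 0 h at 2 h. No MCM gene passed the threshold, and the spread of their classes of signal at 2 h was 0.15 to 0.20.

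Of the sliding clamp and the enzymes that supply deoxynucleotides, 3 of 4 genes were read. Pcna, the clamp that holds polymerases on DNA, had 4040.0, 4247.6 and 3627.8. Rrm1, the large subunit of ribonucleotide reductase, had 563.4, 558.6 and 556.2, and was nearly level. Rrm2, its regulated small subunit, had 950.7, 857.9 and 857.7. None of the 3 passed 2^0.8-fold. Other probe sets of the reductase genes were lower at 2 h than those given. That of Rrm1 had 243.9, 223.1 and 199.4, a log2 ratio of -0.29. Those of Rrm2 had 178.8, 180.4 and 133.5 (-0.42) and 645.6, 551.4 and 551.7 (-0.23).

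Mxd3, a MAX-binding repressor expressed in S phase, had signals of 102.0, 58.4 and 59.8. Its log2 ratio was -0.80 at 1 h, past the threshold by a small margin, and -0.77 at 2 h, which is not past it. With signals below 100 set to 100 the log2 ratio at 1 h was -0.03.

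**Figure D4:**
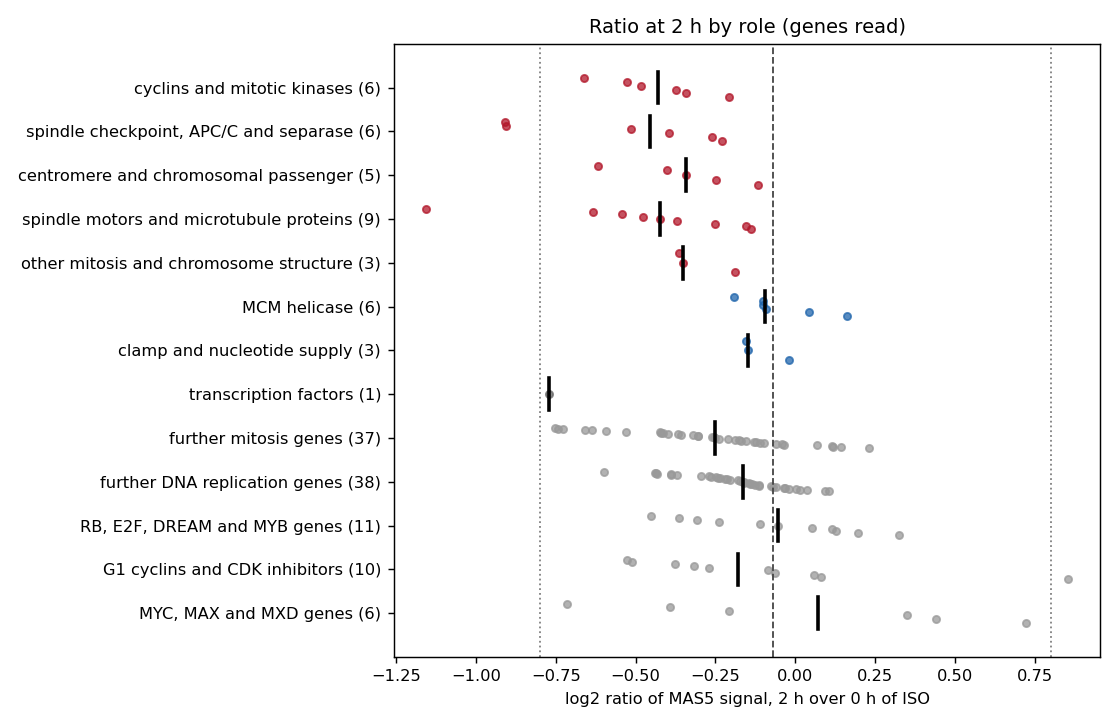
Log2 ratio of the MAS5 signal at 2 h over 0 h (horizontal axis) for the genes read of each role, 1 point per gene with the number of genes in brackets. Red are mitosis genes, blue replication genes, dark grey Mxd3 and light grey other genes of the cell cycle; black bars are medians, the dashed line is the median of all genes read and dotted lines mark 2^0.8-fold. The red rows have medians from -0.46 to -0.34 and the blue rows -0.10 and -0.15.

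Other cell cycle genes, from lists chosen by function with earlier results of these data known, are given beside the members. Of 46 further mitosis genes 37 were read, none passed the threshold at 1 or 2 h, 32 were below 0 h at 2 h, and their median was -0.25. The lowest was Cdca2, a phosphatase regulator of chromosomes, at -0.75, followed by Fbxo5, the APC/C inhibitor Emi1, at -0.74. Of 43 further DNA replication genes 38 were read, none passed, 33 were below 0 h at 2 h, and the median was -0.16. Tk1, thymidine kinase, had the lowest ratio of these at -0.60. Over all genes 61.4% were below 0 h at 2 h, and 0.812% were lower and 2.73% higher by 2^0.8-fold. At or under 80% of 0 h at 2 h were 13 of the 37 further mitosis genes, against 14.6% of all genes. So were 7 of the 38 further replication genes, a share near that of all genes. The 2 kinds of gene thus lay closer together in these lists than among the members. At 1 h both lists had a median of -0.09, with 28 of the 37 mitosis genes and 31 of the 38 replication genes below 0 h. A signal lower on each later array was seen in 20 of the 37 and in 23 of the 38, against 33.0% of all genes. The difference between the 2 kinds of member at 1 h was therefore not seen in these lists. In these lists too a CHR was found more often in mitosis genes, 69.2% of those with a promoter, than in replication genes, 32.4%.

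Of 19 genes of the RB, E2F, DREAM and MYB families 11 were read and none passed, with a median of -0.05 at 2 h. Of 12 G1 cyclins and CDK inhibitors 10 were read. Cdkn1a, which encodes the CDK inhibitor p21, was the 1 gene of all 5 lists that passed, with signals of 721.7, 931.1 and 1306.0, which is 1.81-fold higher at 2 h. It rose while the other 6 inhibitors read were below 0 h at 2 h, from -0.53 for Cdkn2c to -0.09 for Cdkn1b. Of 9 MYC, MAX and MXD genes 6 were read and none passed. The largest differences among these were those of Mxd4 at -0.71 and Mxi1 at 0.72, a pair of MAX-binding repressors related to Mxd3.

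Promoter letters and array values were then set side by side. Over all genes read that had a promoter, the median log2 ratio at 2 h was -0.08 for the 1246 with a CHR and -0.07 for the 4448 without. With both a CHR and a CCAAT box it was -0.09 for 517 genes, against -0.07 for the other 5177. Among the mitosis genes read, the 22 with a CHR had a median of -0.38 and the 3 without one, Bub1, Mad2l1 and Nusap1, had -0.26. Over all genes the medians with and without the motifs thus lay close together, and the 3 mitosis genes without a CHR in the window were also below 0 h.

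Other probe sets of the same genes, each a separate group of short probes on the same arrays, gave a further reading. For 18 members 24 more probe sets reached 100. Of the 11 of mitosis genes, 3 reached 100 on the 0 h array alone and so could be read only because they were high there. These were one of Tpx2 (147.7, 87.9 and 74.5, a log2 ratio of -0.99), one of Cdca8 (105.4, 81.6 and 59.9, a log2 ratio of -0.82) and the second of Bub1b (105.8, 86.7 and 68.5, a log2 ratio of -0.63). The first 2 of these passed the threshold, where the brightest probe sets of the same genes had -0.25 and -0.34. A further probe set of Cdca8, with 349.7, 290.8 and 215.8, had -0.70. The other 8 of mitosis genes were all below 0 h at 2 h, with a median of -0.37 and none past the threshold, and 6 of them had 100 on all arrays. Of the 13 of replication genes 10 were below 0 h at 2 h. One probe set of Mcm4 went from 939.0 and 993.5 to 1820.0, a log2 ratio of 0.95, whereas the brighter probe set of the same gene had 0.04. Of the 39 probe sets that stood for the genes, 19 have a suffix that marks probes shared between transcripts or genes, that of Kifc1 and the main one of Bub1b among them.

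**Figure D5:**
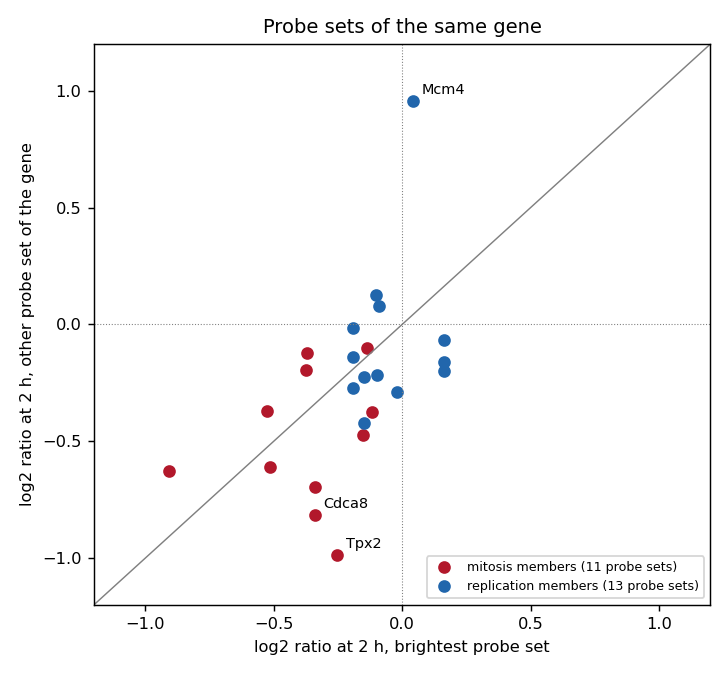
Log2 ratio at 2 h over 0 h of each further probe set (vertical axis) against that of the brightest probe set of the same gene (horizontal axis), with 11 probe sets of mitosis genes in red and 13 of replication genes in blue. The line marks equal ratios. Probe sets past 2^0.8-fold are named, and that of Mcm4 stands apart at 0.95.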

How the data were processed

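Labelled RNA of iBATs was hybridized to Affymetrix mouse genome arrays, 1 per time point. The authors deposited a linear intensity for every probe set, computed with MAS5 per the submitters' processing notes. Their methods remove absent and dim probe sets, but the deposited table still holds them, and detection calls were not used here. The number of arrays limits the precision.

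Of 45101 probe sets, 34958 had 1 gene symbol and were used, 932 had several and 9211 were unnamed here. Symbols came from the platform annotation of the public archive, and those of all 42 members with a probe set were the same by gene identifier in RefSeq (GRCm38.p6). Log2 ratios were computed with Python 3.11.15, numpy 2.4.6 and pandas 2.3.3, with 0.1 in place of a signal of 0. Spread was taken in 10 classes of mean signal. The calculation was tested on simulated data. Every member read is named with its signals, and of the pathway lists every gene past 2^0.8-fold. From lists without such a gene, those named for the size of their ratio were picked once the values were known. The members, lists and tests were chosen with earlier results of these data known. Motifs were searched in RefSeq promoters, 32851 windows in all. Alternatives were other filters (at least 100 on all arrays, at least 200, none), low signals set to 100 or 32 added to all, scaling to equal medians, quantile and cyclic loess normalization (limma 3.58.1, R 4.3.3), other choices of probe set, and thresholds of 2-fold and of 80% of the earlier signal. Figures were drawn with matplotlib 3.10.9.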

Additional observations from a re-analysis of the deposited data

How the results depend on the processing

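The medians held better than the counts. Under the 10 alternatives that can move them, the median log2 ratio at 2 h lay between -0.40 and -0.34 for the mitosis genes and between -0.15 and -0.08 for the replication genes, and the mitosis median minus that of all genes read was between -0.33 and -0.28. With arrays scaled to the same median, all genes shifted by 0.10 at 1 h, where the median of the mitosis genes was -0.08 and that of all genes 0.08. The median of the replication genes at 1 h was below 0 after quantile normalization and cyclic loess and with the median over probe sets. Every mitosis gene that could be read was below 0 h at 2 h under each alternative but the one with no filter, where 29 of 30 were.

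The 3 members lower at 2 h were 0 where 100 had to be reached on all 3 arrays or 200 on any, and 1 with signals below 100 set to 100, with 32 added and at 2-fold. The 1 member lower at 1 h, Mxd3, was 0 under these 5 alternatives and after quantile normalization, cyclic loess and scaling to equal medians, and 2 with no filter. After those normalizations and under the stricter filters Mxd3 was not read, so the 0 there says nothing about its ratio. With a signal at or under 80% of the earlier one, added after the data were seen, 8 were lower at 1 h, 21 at 2 h and 7 from 1 h to 2 h. Over all genes the lower calls at 2 h were 56, and 12 with at least 100 on all 3 arrays. Bub1b was also not called with the median over its probe sets or without shared suffixes, while Kifc1 was called at 2^0.8-fold under all 7 alternatives in which it was read. No paired analysis was possible because there is 1 array per time point, and no replicate could be left out.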
